A study of Mus musculus with 12 samples.

Results

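The mitochondrial ribosomal protein genes are the nuclear genes named Mrpl (large subunit) or Mrps (small subunit) plus a number, and they were followed in mouse liver over 12 Agilent arrays of 2 colours. Every probe whose accession maps to such a symbol in a RefSeq gene table was taken. Of the 78 genes with such a name 76 were measured, 47 Mrpl and 29 Mrps, out of 25270 genes or unnamed probes in all. Mrpl44 and Mrpl48 had no probe here. Members were chosen by name and not by a measured value, but the family was picked with the log2 fold changes of these arrays known, so its counts and medians are descriptions and no test was run on the family as a whole.

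Whole livers came from C57BL/6 mice with MycF/F alleles (floxed Myc) with or without ERT2-Cre, a recombinase that tamoxifen activates, kept for 2 days on control diet or on a diet holding 0.1% Wy-14643, an agonist of the nuclear receptor PPARα. The groups were MycF/F,ERT2-Cre on Wy-14643 (4 arrays), MycF/F on Wy-14643 (3 arrays), MycF/F,ERT2-Cre on control diet (4 arrays) and MycF/F on control diet (1 array, of RNA labelled as pooled). All groups carry the MycF/F alleles, the labels call the Cre groups knockout and the MycF/F groups wild type, and the promoter behind ERT2-Cre, any tamoxifen dose, age and sex are unstated there. Each array compared a sample (Cy5) with the same pooled liver RNA (Cy3), so every value below is a log2 ratio to that reference, or a difference of such ratios (log2 fold change).

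Mitochondria keep a ribosome of their own, which translates the few proteins still encoded in mitochondrial DNA, all of them parts of the respiratory chain and ATP synthase. Its ribosomal RNAs are made inside the organelle, while all its proteins are translated in the cytosol and imported. Many of these proteins descend from bacterial ribosomal proteins and others were added during the evolution of mitochondria. In hepatocytes PPARα agonists are known for inducing peroxisomal and mitochondrial fatty acid oxidation, and MYC is known for driving genes of ribosome production.

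All 76 members were well above background in Cy5 on all 12 arrays, and each was represented by its brightest probe. Across arrays 64.6% to 77.1% of spots were well above background, the median Cy5 signal was 2.64 to 4.82 times background and no Cy5 spot was saturated. The arrays lay on 3 slides of 4, and slide 1 stood apart: 5.48% to 8.38% of its spots were marked as outliers, against 1.03% to 1.86% on slides 2 and 3, and 56 of the 67 missing member values fell on it. Slide 1 held 1 MycF/F,ERT2-Cre Wy-14643 array, 1 MycF/F Wy-14643 array and 2 MycF/F,ERT2-Cre control arrays. Nothing in the labels ties each sample to an animal of its own, and the spread behind the p-values may therefore be technical. In Myc, the floxed gene, the probe with 10 spots gave log2 ratios of -1.21, -1.15, -0.96 and -1.03 in Wy-14643-fed MycF/F,ERT2-Cre livers, against 0.88, 0.52 and 0.88 in Wy-14643-fed MycF/F livers, a log2 fold change of -1.85 (SE 0.17, limma adjusted p = 0.00359). On control diet the same probe gave -0.86, -0.22, -0.91 and -1.06 in MycF/F,ERT2-Cre livers and 0.22 on the MycF/F array. A second Myc probe gave a log2 fold change of -1.82 on Wy-14643 (limma adjusted p = 0.00476) and the brightest one -0.57 (limma adjusted p = 0.257). A probe outside the deleted stretch would not show the deletion. The Myc probes were not placed relative to that stretch, so the reason for the difference between them was not tested.

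The members lay higher on Wy-14643 than on control diet in both genotypes. The median log2 ratio over the members was -0.032, 0.074, 0.017 and 0.12 on the 4 MycF/F,ERT2-Cre arrays on Wy-14643, against -0.24, -0.26, -0.27 and -0.31 on the 4 MycF/F,ERT2-Cre arrays on control diet. It was 0.14, 0.12 and 0.18 on the 3 arrays of Wy-14643-fed MycF/F livers, against -0.20 on the MycF/F control array. All 7 Wy-14643 arrays lay above all 5 control arrays, and the 3 MycF/F arrays on Wy-14643 lay above the MycF/F,ERT2-Cre ones, the lowest of them by a narrow margin. As group values the family median averaged 0.044 ± 0.066 (SD, n = 4) in Wy-14643-fed MycF/F,ERT2-Cre livers and -0.27 ± 0.031 (SD, n = 4) in control-fed MycF/F,ERT2-Cre livers. The mean in Wy-14643-fed MycF/F livers was 0.15 ± 0.031 (SD, n = 3). The median over all genes stayed between 0.0069 and 0.024 on every array.

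**Figure D1:**
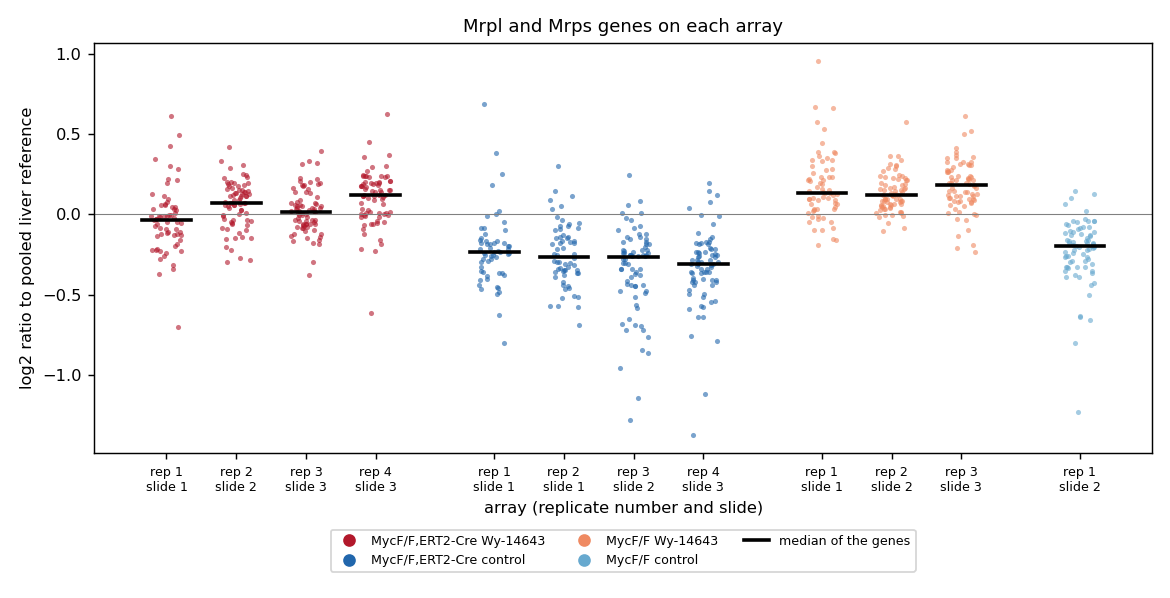
Log2 ratio to the pooled liver reference (vertical axis) of each Mrpl and Mrps gene (points) on each of the 12 arrays, with the median of the genes as a bar, coloured by group and labelled with replicate and slide. The bars of the Wy-14643 arrays lie between -0.032 and 0.18, above those of the control arrays, which lie between -0.31 and -0.20.

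With Cre, 44 of the 76 members rose on Wy-14643 relative to control diet and none fell (limma, adjusted p under 0.05 over all genes), where 9.11% of all genes tested passed the same threshold upwards and 7.26% downwards. The other 32 members did not pass. The shift was broad and small: the median log2 fold change of the members was 0.33 (1.26-fold), the quartiles of the family were 0.20 and 0.46, and 72 of 76 values lay above zero. Over all genes the median was 0.03 and 56.6% of values lay above zero, and the members' median exceeded the value of 87.9% of all genes. Only 6 members reached 1.5-fold and 1 reached 2-fold. Of the large subunit genes 29 of 47 rose (median log2 fold change 0.36), and of the small subunit genes 15 of 29 (median 0.29). Of the members with a bacterial counterpart 26 of 47 rose (median 0.33), and of those without one 18 of 29 (median 0.35). The difference between these subsets was not tested. The count of 44 depended on the scaling: it was 21 with the deposited log ratio, 8 with median centring instead of loess, and 6 with the Cy5 channel alone, while the median of the members stayed positive. Calls over all genes, both directions together, went from 4120 to 3625, 887 and 1294 in turn.

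Among the large subunit genes that rose, the 8 with the highest log2 fold changes were Mrpl17, Mrpl50, Mrpl37, Mrpl43, Mrpl30, Mrpl15, Mrpl51 and Mrpl54. Mrpl17, which has a bacterial counterpart, had log2 ratios of 0.12, -0.035 and 0.094 in Wy-14643-fed MycF/F,ERT2-Cre livers (replicates 2 to 4), against -0.96 and -1.12 in control livers (replicates 3 and 4). The arrays without a value lay on slide 1, and no Wy-14643 value came near a control value. It was 2.14-fold higher (SE 0.10 on the log2 scale, adjusted p = 9.17e-05), the highest value of the family in this comparison, but rests on 3 and 2 arrays and on 1 probe. A second Mrpl17 probe, well above background on 6 arrays, gave a log2 fold change of 0.029 (SE 0.074).

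Mrpl51, a large subunit protein that bacteria lack, had log2 ratios of 0.047, 0.061, 0.0026 and 0.088 in Wy-14643-fed MycF/F,ERT2-Cre livers, against -0.45, -0.58, -0.44 and -0.52 in control livers. The groups were far apart beside the spread within each. The log2 fold change was 0.54 (SE 0.065, adjusted p = 0.000109). Mrpl11, whose bacterial counterpart sits at the base of the stalk that receives translation factors, had -0.047, 0.061, 0.14 and 0.18 on Wy-14643, against -0.48, -0.35, -0.47 and -0.41 on control diet. It rose by 0.51 (SE 0.073, adjusted p = 0.000441), with no overlap between the groups. Mrpl14, on the face of the large subunit that meets the small one, had 0.22, 0.19, 0.21 and 0.24 on Wy-14643, against -0.21, -0.35, -0.19 and -0.24 on control diet (log2 fold change 0.46, SE 0.068, adjusted p = 0.000515). Mrpl52, a further protein without bacterial counterpart, had 0.30, 0.23, 0.19 and 0.24 on Wy-14643, against -0.15, -0.30, -0.17 and -0.21 on control diet (log2 fold change 0.45, SE 0.066, adjusted p = 0.000531). Both were positive on all 4 Wy-14643 arrays and negative on all 4 control arrays. Like Mrpl17, the genes of this paragraph are shown for their small p in this comparison, so the gap between groups is no separate support.

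The other large subunit genes of that group rose by 0.53 to 0.81 on the log2 scale. Mrpl50 had a log2 fold change of 0.81 (adjusted p = 0.002), Mrpl37 0.75 (adjusted p = 0.00343) and Mrpl43 0.60 (adjusted p = 0.000932), and all 3 are proteins that bacterial ribosomes lack. The value of Mrpl50 rests on 4 Wy-14643 and 2 control arrays, replicate 1 on Wy-14643 lay far above the other 3 (0.43, against 0.028 to 0.071), and its second probe gave 0.46. The second probe of Mrpl43 gave 0.46. Mrpl30 gave 0.57 (adjusted p = 0.00147), Mrpl15 0.57 (adjusted p = 0.0023) and Mrpl54 0.53 (adjusted p = 0.00315). Smaller values were seen in some genes of the stalks and of ribosome rescue. Mrpl12, the stalk protein that recruits elongation factors and also binds the mitochondrial RNA polymerase, rose by 0.38 (adjusted p = 0.007), Mrpl1, which forms the stalk on the side where spent tRNA leaves, by 0.44 (adjusted p = 0.00224, with other probes at 0.078 and 0.34), and Mrpl58, a peptidyl-tRNA hydrolase that frees stalled ribosomes, by 0.36 (adjusted p = 0.00297). Mrpl10, the base of the stalk that carries Mrpl12, had a log2 fold change of 0.19 that did not pass (adjusted p = 0.284).

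Of the small subunit genes, Mrps18b had the smallest p of the whole family. Its log2 ratios were -0.057, -0.069, -0.10 and -0.058 in Wy-14643-fed MycF/F,ERT2-Cre livers, against -0.80, -0.69, -0.86 and -0.79 in control-fed MycF/F,ERT2-Cre livers. The 4 Wy-14643 arrays lay close together and clear of every control array, and the log2 fold change was 0.71 (1.64-fold, SE 0.071, adjusted p = 2.53e-05). Since Mrps18b is shown for that small p, the gap is no separate support. Mice have 3 genes related to the same bacterial small subunit protein, and the other two did not pass: Mrps18c had a log2 fold change of 0.38 (SE 0.21, adjusted p = 0.282), with a second probe at 0.53 (SE 0.079), and Mrps18a, whose product lies in the large subunit despite its name, 0.17 (SE 0.10, adjusted p = 0.312). Mrps2 rose by 0.52 (adjusted p = 0.00195), Mrps17 by 0.47 (adjusted p = 0.0042), Mrps5 by 0.38 (adjusted p = 0.00301), Mrps12, a protein of the decoding centre, by 0.33 (adjusted p = 0.0217) and Mrps7, a protein of the small subunit's head, by 0.32 (adjusted p = 0.0413). Of these, Mrps17 had a second probe at 0.14, Mrps7 one at 0.087 and Mrps2 one at 0.49, and Mrps5 had others at 0.31 and 0.19.

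The 32 members that did not pass ran from a log2 fold change of 0.79 to one of -0.22. At the top stood Mrpl28, with 0.79 (SE 0.27, adjusted p = 0.0881), whose second probe gave 0.23. On Wy-14643 it had values only on replicates 1 and 3 (-0.22 and -0.023). Its control arrays gave -0.50 and -0.51 on slide 1, against -1.28 and -1.37 on slides 2 and 3. At the bottom stood the 4 members below zero, Mrps21 at -0.047, Mrpl38 at -0.056, Mrps25 at -0.086 and Mrpl23 at -0.22 (adjusted p 0.801, 0.816, 0.586 and 0.16). Mrpl23, which sits beside the exit of the tunnel for the growing protein chain, had log2 ratios of 0.068, 0.054, -0.18 and -0.044 on Wy-14643, against 0.38, 0.061 and 0.14 on control diet (replicates 1, 3 and 4). The groups overlapped, and its 95% interval ran from -0.43 to -0.0089. Mrps36, which has since been assigned to the 2-oxoglutarate dehydrogenase complex and not to the ribosome, had a log2 fold change of 0.14 (adjusted p = 0.462).

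**Figure D2:**
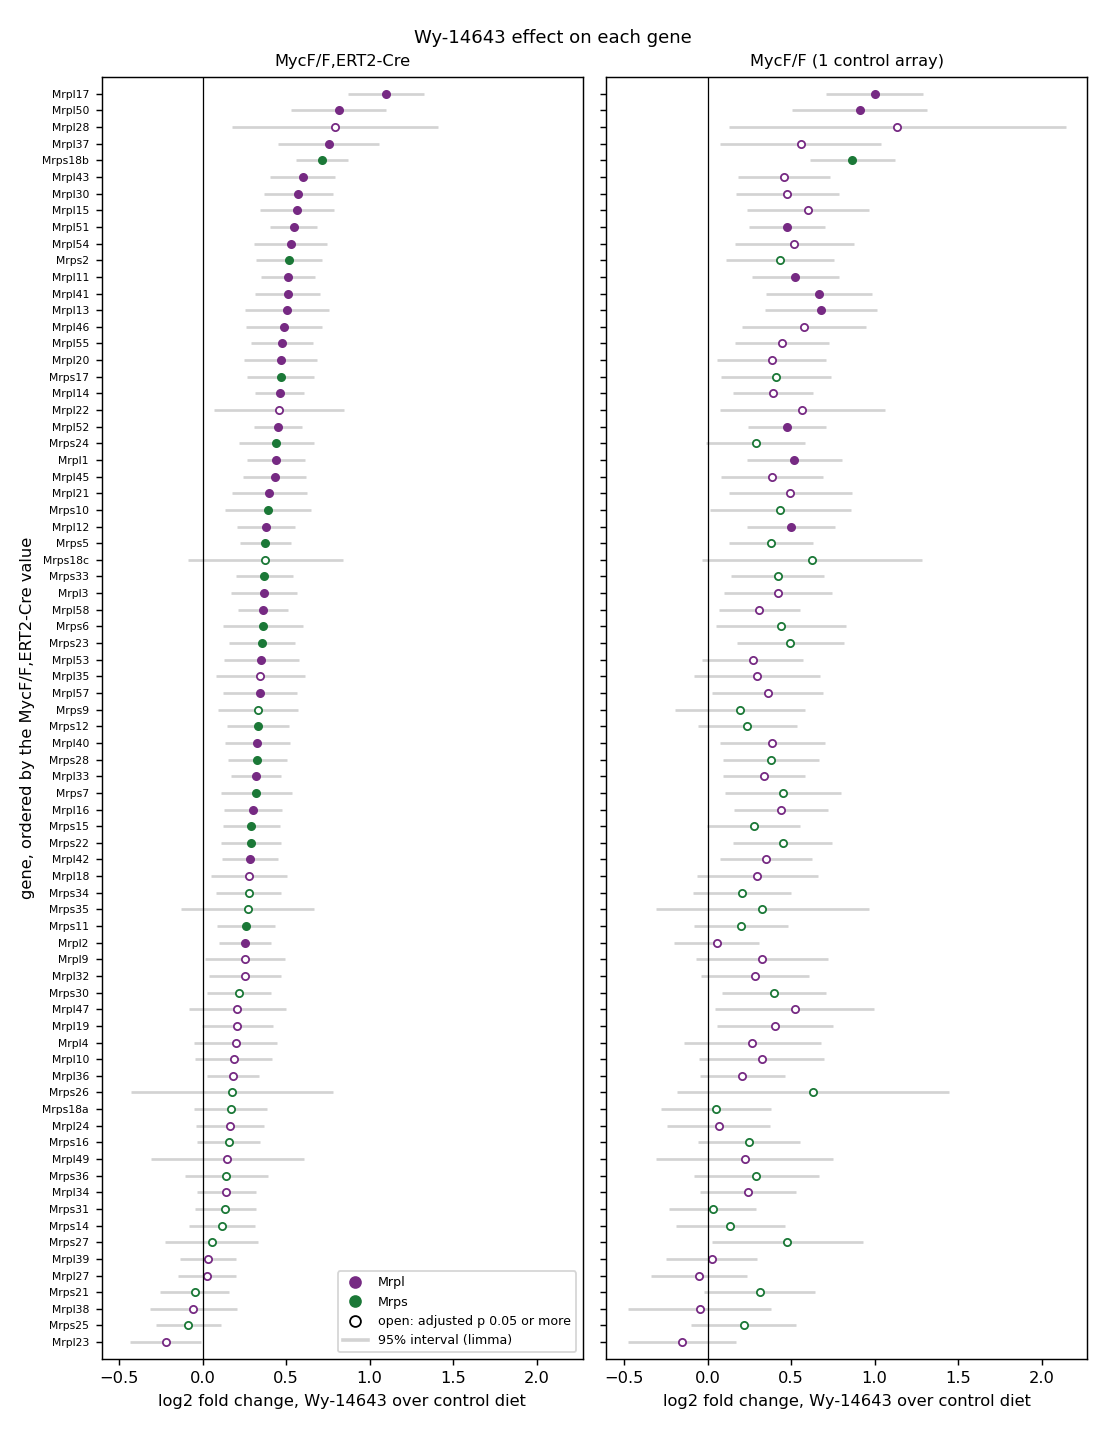
Log2 fold change of Wy-14643 over control diet (horizontal axis) for each of the 76 genes, ordered by its value in MycF/F,ERT2-Cre livers (left panel), with MycF/F livers and their 1 control array in the right panel. Points are limma estimates, filled where the adjusted p is under 0.05 (44 genes left, 10 right), and grey bars are 95% intervals, wider in the right panel.

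Arrays were also counted without a model. Of the 47 members with a value on all 8 arrays of MycF/F,ERT2-Cre livers, 29 (61.7%) had every Wy-14643 array above every control array, against 9.53% of all genes. Within slides the members' median log2 fold change in MycF/F,ERT2-Cre livers was 0.23 on slide 1, 0.39 on slide 2 and 0.40 on slide 3, with 52 of 62, 70 of 72 and 71 of 75 values above zero. Of the 25 members with several probes, 24 had all probes positive and 1, Mrpl38, had all negative.

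In MycF/F livers the same comparison rests on 1 control array and takes its spread from the other groups. Here 10 of 76 members rose and none fell, against 3.28% of all genes called higher and 3.25% lower, and the median log2 fold change was 0.39 (1.31-fold) with 73 of 76 values above zero. At an unadjusted p under 0.05, 44 members were higher and none lower, against 8.58% and 8.96% of all genes. The 10 called were Mrpl17, Mrpl50, Mrps18b, Mrpl13, Mrpl41, Mrpl11, Mrpl1, Mrpl12, Mrpl51 and Mrpl52. Mrps18b had log2 ratios of 0.35, 0.16 and 0.19 in Wy-14643-fed MycF/F livers, against -0.63 on the control array (log2 fold change 0.87, SE 0.12, adjusted p = 0.000719). Mrpl17 had 0.21, 0.17 and 0.22 on Wy-14643 and -0.80 on control diet (log2 fold change 1.00, SE 0.13, adjusted p = 0.00167), with its second probe at 0.089. Both genes had all 3 Wy-14643 arrays above the lone control value, but they were chosen as called in this comparison, so this is no separate support. The other 8 had log2 fold changes of 0.48 to 0.91, with adjusted p from 0.0154 to 0.0323. Without replicate 3 of the Wy-14643 group only 3 members were called, and with median centring none were. Calls over all genes also fell in both of these settings. Among the other 8, Mrpl50 (log2 fold change 0.91) and Mrpl13 lacked a value on replicate 1 of the Wy-14643 group. The 3 Mrpl1 probes gave 0.12, 0.52 and 0.74 in MycF/F livers. On slide 2, which holds 1 array of each group, the members' median was 0.33.

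The drug effects of the genotypes were compared in the same fit. No member passed in the difference between them, and neither did any other gene (0% called in either direction, smallest member p 0.0682 unadjusted, adjusted p 1 for all), and no member had an unadjusted p under 0.05, against 1.36% of all genes higher and 0.805% lower. The 4 smallest p belonged to Mrps21 (difference of log2 fold changes, MycF/F,ERT2-Cre minus MycF/F, -0.36, SE 0.18), Mrps25 (-0.30, SE 0.17), Mrps27 (-0.42, SE 0.24) and Mrpl2 (0.20, SE 0.14). The median difference was -0.039 over the members and 0.039 over all genes. The 95% interval lay within 0.5 of zero for 44 members and reached past it for 32.

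**Figure D3:**
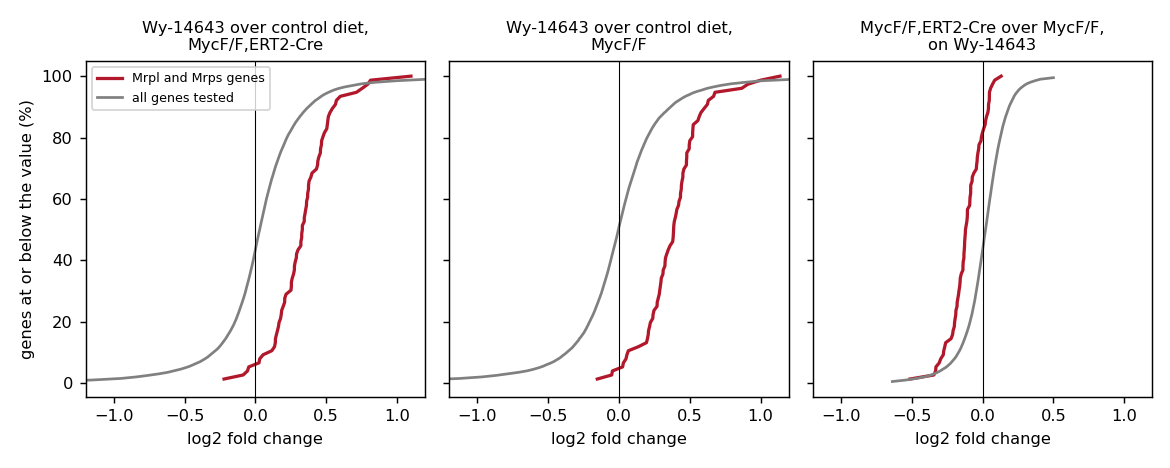
Cumulative share of genes (vertical axis, %) at or below each log2 fold change (horizontal axis) for the Mrpl and Mrps genes (red) and for all genes tested (grey), in 3 comparisons. The red curve lies to the right of the grey one for Wy-14643 in both genotypes (medians 0.33 and 0.39) and to its left for MycF/F,ERT2-Cre over MycF/F on Wy-14643 (median -0.12).

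On Wy-14643 the members lay slightly lower in MycF/F,ERT2-Cre than in MycF/F livers, without any single gene passing the test. No member was called (limma, smallest adjusted p 0.184), where 0.0199% of all genes were called higher and 0.0834% lower. At an unadjusted p under 0.05, 12 of 76 members were lower and none higher, against 4.57% of all genes lower and 3.74% higher. The median log2 fold change was -0.12 (0.92-fold) and 62 of 76 values lay below zero, against a median of 0.021 and 43.3% of values below zero over all genes. The family's 95% intervals lay within 0.5 of zero for 64 of 76 members. Of the 57 members with a value on all 7 arrays, 16 (28.1%) had every MycF/F,ERT2-Cre array below every MycF/F array, against 5.23% of all genes. Within slides the median was -0.20, -0.047 and -0.12, with 50 of 59, 52 of 73 and 61 of 74 values below zero. This comparison shares its MycF/F,ERT2-Cre arrays with the drug comparison above.

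The 6 smallest p in that comparison fell on 4 small subunit names and 2 large subunit ones. Mrps18b had log2 ratios of -0.057, -0.069, -0.10 and -0.058 in Wy-14643-fed MycF/F,ERT2-Cre livers, against 0.35, 0.16 and 0.19 in Wy-14643-fed MycF/F livers, a log2 fold change of -0.31 (SE 0.077, adjusted p = 0.184). Mrps22, a small subunit protein found only in mitochondria, whose mutation in humans impairs the respiratory chain, had 0.025, 0.13, 0.16 and 0.25, against 0.53, 0.36 and 0.52 (log2 fold change -0.33, SE 0.090, adjusted p = 0.21). Mrps30, which structures place in the large subunit, had -0.24, -0.12, -0.041 and -0.16, against 0.33, 0.098 and 0.18 (log2 fold change -0.34, SE 0.095, adjusted p = 0.222). In all 3 the MycF/F,ERT2-Cre arrays lay below every MycF/F array, and the adjusted p did not pass. These genes were picked for their small p in this comparison, so the lack of overlap is no separate support.

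Mrps27, a small subunit protein with repeats that bind RNA, had the lowest estimate. It had log2 ratios of -0.70, -0.22, -0.30 and -0.23 in Wy-14643-fed MycF/F,ERT2-Cre livers, against 0.047, 0.17 and 0.24 in Wy-14643-fed MycF/F livers, a log2 fold change of -0.51 (SE 0.14, adjusted p = 0.207). Replicate 1 of the Cre group lay well below the other 3. Mrpl16, a protein near the tRNA binding sites, had -0.13, -0.085, -0.079 and -0.012, against 0.11, 0.22 and 0.33 (log2 fold change -0.30, SE 0.085, adjusted p = 0.239). Mrpl41, which bacteria lack, had -0.23, 0.041, -0.12 and 0.10, against 0.27, 0.29 and 0.27 (log2 fold change -0.33, SE 0.096, adjusted p = 0.246). Mrpl16 and Mrpl41 did not overlap between the genotypes either, and they were picked in the same way.

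**Figure D4:**
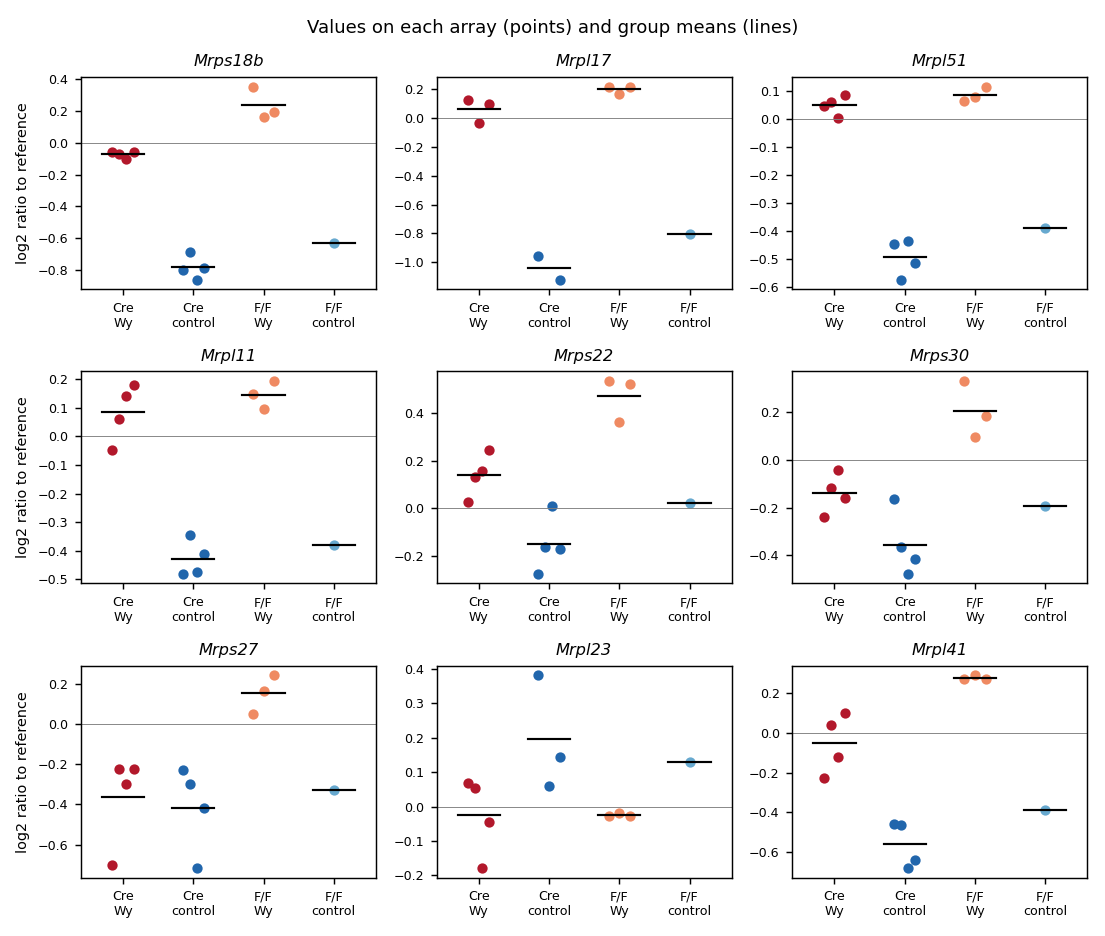
Log2 ratio to the reference (vertical axis) on each array (points) with group means (lines) for 9 members, by group: Cre is MycF/F,ERT2-Cre, F/F is MycF/F and Wy is Wy-14643. In Mrps18b, Mrpl17, Mrpl51 and Mrpl11 the Wy-14643 points lie above the control points in both genotypes, in Mrps22, Mrps30, Mrps27 and Mrpl41 the Cre points on Wy-14643 lie below the MycF/F ones, and Mrpl23 is the lowest member for the drug.

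On control diet the genotypes could be compared only against the lone MycF/F array. No member was called and none had an unadjusted p under 0.05 (adjusted p 1 for all, with 0% of all genes called in either direction and, unadjusted, 0.559% higher and 1.23% lower), the median log2 fold change was -0.079 and 64 of 76 values lay below zero, against a median of -0.022 and 56.5% below zero over all genes. The smallest p belonged to Mrpl2 (log2 fold change -0.23, SE 0.11), which helps to join the subunits, Mrpl45 (-0.26, SE 0.14), which holds the ribosome at the inner membrane, Mrps2 (-0.26, SE 0.14) and Mrpl17 (-0.24, SE 0.14). The second probe of Mrpl17 gave -0.0033 there, that of Mrps2 gave -0.11 and that of Mrpl45 gave 0.058. None of these 4 passed the test.

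The members moved together from array to array. Among the 47 with a value on all 12 arrays the median pairwise correlation was 0.766, a description over arrays that share the groups. After each group's mean was taken out it was 0.162 over 11 arrays. Mrpl41 and Mrps5 followed the mean of the other members most closely (r = 0.987 each, over 12 arrays), followed by Mrps18b (r = 0.981). Mrpl27 (0.042), Mrpl38 (0.0667), Mrps14 (0.304), Mrps25 (0.341) and Mrpl39 (0.373) followed it least. Mrpl27, whose bacterial counterpart reaches toward the site of peptide bond formation, had log2 ratios of 0.11, 0.16, -0.086 and 0.21 in Wy-14643-fed MycF/F,ERT2-Cre livers, against 0.18, 0.088, -0.024 and 0.042 in control livers. Its groups overlapped, and its log2 fold change was 0.026 (SE 0.081, adjusted p = 0.881).

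Promoter sequence of members was read from RefSeq (GRCm38.p6), which held an entry for 67 of the 76 genes, 70 entries in all, each covering 250 bases before and 50 after the start. The sequences below run 5′ to 3′ over the 250 bases before the start and show members that the results turn on, with capitals for the motifs searched. Hits that reach into the 50 bases after the start are not shown. These are the 1 ETS motif of Mrps18b, the 1 YY1 motif of Mrpl37 and 1 of the 3 NRF1 motifs of Mrpl45. Mrps18b, Mrpl17 and Mrpl51 had the smallest p for the drug, Mrpl37 rose and holds an E-box, Mrpl45 rose and holds NRF1 motifs, and Mrpl23 had the lowest drug value.
Mrps18b, chr17:35916441-35916690, minus strand: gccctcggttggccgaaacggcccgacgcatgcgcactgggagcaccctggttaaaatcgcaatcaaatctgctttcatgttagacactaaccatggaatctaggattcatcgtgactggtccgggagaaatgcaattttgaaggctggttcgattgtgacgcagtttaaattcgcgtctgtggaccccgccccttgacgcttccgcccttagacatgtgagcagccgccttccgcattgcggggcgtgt
Mrpl17, chr7:105811088-105811337, minus strand: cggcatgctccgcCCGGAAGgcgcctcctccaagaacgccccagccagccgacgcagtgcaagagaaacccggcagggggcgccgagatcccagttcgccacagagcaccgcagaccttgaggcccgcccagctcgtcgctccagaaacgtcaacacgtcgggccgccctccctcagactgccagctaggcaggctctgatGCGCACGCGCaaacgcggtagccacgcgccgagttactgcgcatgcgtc
Mrpl51, chr6:125191950-125192199, plus strand: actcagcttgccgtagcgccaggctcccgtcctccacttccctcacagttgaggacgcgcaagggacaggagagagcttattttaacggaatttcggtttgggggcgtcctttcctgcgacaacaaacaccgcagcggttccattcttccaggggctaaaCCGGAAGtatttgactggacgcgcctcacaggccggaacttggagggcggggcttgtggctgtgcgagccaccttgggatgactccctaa
Mrpl37, chr4:107066867-107067116, minus strand: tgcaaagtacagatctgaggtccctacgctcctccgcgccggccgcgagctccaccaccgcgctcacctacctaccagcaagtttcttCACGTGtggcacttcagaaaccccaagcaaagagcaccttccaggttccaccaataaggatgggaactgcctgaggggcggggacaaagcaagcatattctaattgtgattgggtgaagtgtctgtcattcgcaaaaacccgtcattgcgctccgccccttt
Mrpl45, chr11:97315466-97315715, plus strand: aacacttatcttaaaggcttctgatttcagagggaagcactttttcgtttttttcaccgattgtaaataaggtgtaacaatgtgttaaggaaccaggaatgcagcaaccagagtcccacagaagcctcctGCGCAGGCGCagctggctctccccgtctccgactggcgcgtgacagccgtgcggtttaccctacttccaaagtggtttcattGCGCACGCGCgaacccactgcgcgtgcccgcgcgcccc
Mrpl23, chr7:142532782-142533031, plus strand: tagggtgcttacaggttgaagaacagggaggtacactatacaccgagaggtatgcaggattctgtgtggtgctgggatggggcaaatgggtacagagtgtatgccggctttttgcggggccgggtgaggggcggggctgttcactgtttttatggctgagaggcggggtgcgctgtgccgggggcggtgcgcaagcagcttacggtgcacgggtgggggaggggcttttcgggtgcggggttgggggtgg

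Each motif was searched on both strands over the full 300 bases, and overlaps between motifs were allowed. The ETS motif CCGGAAG was found in 25 of 70 member entries (35.7%), against 8.86% of all promoters and 11.6% of those of protein-coding genes. The NRF1 motif GCGC, any base, TGCGC was in 12 (17.1%, against 4.6% of all promoters and 6.38% of those of protein-coding genes). The YY1 motif AAGATG followed directly by GCGG was in 5 (7.14%, against 0.852% and 1.21%). The E-box CACGTG, the letters bound by MYC and by other factors of its class, was in 7 (10%, against 7.15% and 7.84%), 3 of them entries of the single gene Mrpl2. The PPARα repeat, AGGTCA 2 times with any base between, was in none (against 0.0396% of all promoters), which says only that these letters are not in these windows. The ETS share was 35.7% both in entries of members called for the drug and in entries of members not called. The NRF1 share was 14.3% in called and 21.4% in uncalled members, and the YY1 share 4.76% and 10.7%. The E-box share was 11.9% (5 of 42 entries) in called and 7.14% (2 of 28) in uncalled members. The 3 Mrpl2 entries are among those 5, so this difference rests on repeated entries of 1 gene. Member promoters had a median GC content of 58.8%, against 52.7% over all promoters and 56.3% over those of protein-coding genes, and these counts carry no test.

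Other genes of mitochondrial gene expression were counted in the same way in Wy-14643-fed MycF/F,ERT2-Cre livers against control diet, and the differences between lists were not tested. Over all genes 9.11% were called higher in that comparison and 7.26% lower. Of 15 translation factors 5 rose and none fell (median log2 fold change 0.31), among them Slirp, which stabilises mitochondrial mRNAs (0.65, adjusted p = 6.8e-05), Oxa1l, which inserts new proteins into the inner membrane (0.86, adjusted p = 0.00137), and Gfm1, an elongation factor (0.78, adjusted p = 0.00158). Of 18 mitochondrial tRNA charging genes 4 rose (median 0.14), led by the glutamate enzyme Ears2 (0.73, adjusted p = 7.96e-05) and by Gatc and Gatb, which make the charged glutamine tRNA (0.56 and 0.54, adjusted p = 0.000535 and 0.00294). Of 25 assembly factors 4 rose and 1 fell (median 0.16), the RNA helicase Ddx28 being highest of the 3 with the smallest p (0.90, adjusted p = 0.00212). Of 15 genes for copying and transcribing mitochondrial DNA 3 rose and 1, the nuclear receptor Esrra, fell (-0.49, adjusted p = 0.00133). Of 5 ribosomal proteins with other names Ptcd3, of the small subunit, rose (0.29, adjusted p = 0.0303). For MycF/F,ERT2-Cre over MycF/F on Wy-14643 no gene of these lists was called, with Ptcd3 at -0.50 (adjusted p = 0.064) and Tfb1m, which methylates the small ribosomal RNA, at -0.41 (adjusted p = 0.108).

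The members were set beside the complexes that mitochondrial translation feeds and beside the ribosome of the cytosol. Nuclear genes of the respiratory chain and ATP synthase had a median log2 fold change of 0.29 on Wy-14643 in MycF/F,ERT2-Cre livers. Of these, 39 of 80 were higher and none lower, against 9.11% and 7.26% of all genes. In MycF/F livers their median was 0.28. Cytosolic ribosomal protein genes had a median of 0.09 in MycF/F,ERT2-Cre livers, with 5 of 77 higher and 2 lower, both smaller shares than over all genes. In MycF/F livers their median was 0.41. For MycF/F,ERT2-Cre over MycF/F on Wy-14643 the medians were -0.12 for the members, 0.036 for the respiratory chain genes and -0.38 for the cytosolic ribosomal proteins. Of the cytosolic ribosomal proteins 4 of 77 fell, against 0.0834% of all genes. Rplp1, Rpl12 and Rps12 had the smallest p (limma adjusted p = 0.0139, 0.0293 and 0.0293). These comparisons share arrays, and no difference between the lists was tested.

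**Figure D5:**
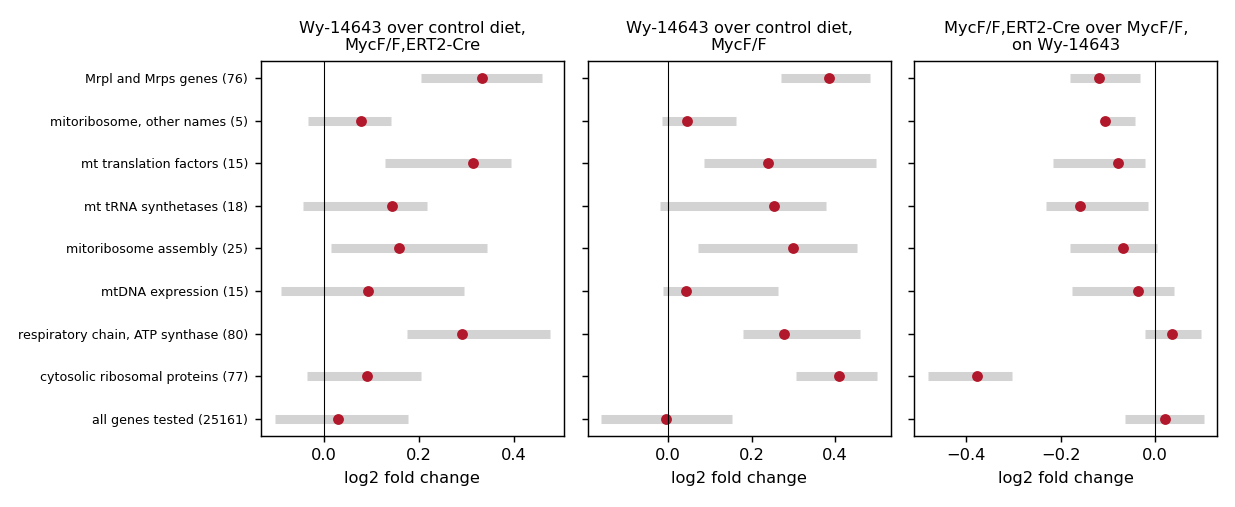
Median log2 fold change (red points, horizontal axis) and interquartile range of the genes (grey bars) for the Mrpl and Mrps genes, 7 other gene lists and all genes tested, in 3 comparisons, with the number of genes in the first one in brackets. The members' medians are 0.33, 0.39 and -0.12, those of the cytosolic ribosomal proteins 0.09, 0.41 and -0.38.

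In whole liver, fewer cells of a type and less RNA per cell cannot be told apart. Over all genes 9.11% were called higher on Wy-14643 in MycF/F,ERT2-Cre livers and 7.26% lower. Markers of liver cell types moved with diet: 4 of 7 measured hepatocyte markers fell on Wy-14643 in MycF/F,ERT2-Cre livers, with a mean log2 ratio of -0.33 to -0.093 on the Wy-14643 arrays and 0.70 to 0.97 on the control arrays, Alb among them (log2 fold change -1.31, adjusted p = 1.61e-05). Of 9 Kupffer cell markers 6 fell (-0.39 to -0.15 on Wy-14643 and 0.12 to 0.84 on control diet), as did 4 of 10 stellate, 2 of 10 endothelial and 2 of 9 lymphocyte markers, while 1 of 7 cholangiocyte markers rose and 1 fell. All measured markers of 5 of these lists, and 7 of 9 of the lymphocyte list, were above background on all arrays. On Wy-14643 all 9 Kupffer cell markers lay higher in MycF/F,ERT2-Cre than in MycF/F livers (median log2 fold change 0.42, none called), with mean log2 ratios of -0.39 to -0.15 in MycF/F,ERT2-Cre livers and -0.76 to -0.41 in MycF/F livers. The part of these markers in the members' values was not tested.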

How the data were processed

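The deposited spot intensity values are the authors' median Cy5 and Cy3 signals and local backgrounds in scanner units. Per the file headers they were made with Agilent Feature Extraction 11.0.1.1. The deposited log10 log ratio of Cy5 over Cy3, after that software's background and dye corrections per the file headers, served only as an alternative. From the intensities, R 4.3.3 with limma 3.58.1, data.table (version 1.17.8) and statmod 1.5.0 computed normexp background correction (offset 50) and within-array loess, giving the log2 ratios used here in place of the authors' deposited ratios. Control and outlier spots were left out, a probe had to be well above background in Cy5 on at least 3 arrays (31861 of 41174 kept), and the brightest kept probe stood for a gene. Gene symbols came from matching probe accessions with RefSeq (GRCm38.p6), and 23374 probes received a single symbol. The array design names another build, so probes were not placed on the genome.

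One model with a mean for each group took in all 12 arrays (lmFit, eBayes, 8 residual degrees of freedom), with 5 two-sided comparisons and Benjamini-Hochberg adjustment over all genes tested. Where a group or gene has a single array, as on MycF/F control diet, the spread is borrowed from the other groups. Named genes were the called members with the highest and lowest log2 fold changes, up to 10 each, or the 4 with the smallest p where fewer than 4 were called, values per array went to the 6 smallest p in both comparisons with several arrays per group, and other lists gave their 3 smallest p. Any other member could be named. The members and lists were chosen with earlier results of these data known. The fit was tested on simulated data, with changes larger than those of most members and with noise independent between arrays. That test does not cover changes as small as most members' or noise shared within a slide. Alternatives in background, scaling, filters, probes, blocks and arrays are given in the closing section. The number of arrays limits the precision.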

Additional observations from a re-analysis of the deposited data

Results flagged for a closer look

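Of 41 groups of 4 arrays tested for a value far from the other 3, 3 stood out, and chance alone gives about 1 in 20. In Wy-14643-fed MycF/F,ERT2-Cre livers, replicate 1 had a log2 ratio of -0.70 for Mrps27, where the other 3 arrays lay between -0.30 and -0.22. The same array had 0.43 for Mrpl50, where the others lay between 0.028 and 0.071. In MycF/F,ERT2-Cre livers on control diet, replicate 3 had -0.39 for Mrpl2, where the others lay between -0.24 and -0.21. Replicate 1 of the Wy-14643 group lies on slide 1, and the part of the slide in these values was not tested.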

How the results depend on the processing

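For Wy-14643 in MycF/F,ERT2-Cre livers 44 members were called higher. This count was 21 with the deposited log ratio, 8 with median centring instead of loess, 28 with scale normalization between arrays and 6 with the Cy5 channel alone. Calls over all genes, both directions together, went from 4120 to 3625, 887, 2951 and 1294 in turn. Leaving out 1 array gave 29 to 45 members called higher and 3112 to 4050 calls over all genes, both lowest without replicate 4 of the Wy-14643 group. The members' medians were then 0.31 to 0.35. The median was 0.43 with median centring, 0.38 with scaling, 0.25 with Cy5 alone and 0.40 without slide 1 (chosen after seeing the data), where 41 of the 44 calls remained. Of the 10 named for the highest values, only Mrpl17 and Mrpl50 stayed called with median centring and only Mrpl17, Mrpl37 and Mrps18b with Cy5 alone. Over all alternatives Mrpl17, Mrpl50, Mrpl37 and Mrps18b were each called in 22 of 23. The log2 fold change of Mrpl17 ran from 0.32 to 1.49 over them. In MycF/F livers the 10 calls became 2 with the deposited ratio, 0 with median centring, 2 with scaling, 1 with Cy5 alone, 16 with slide as a random block, 5 with only the groups compared and 21 without slide 1. Leaving out 1 array gave 3 to 9 calls, the lowest without replicate 3 of the Wy-14643 group, with medians of 0.36 to 0.41. In MycF/F livers calls over all genes also fell with the deposited ratio, median centring, scaling and Cy5 alone, and without each Wy-14643 array. They rose with slide as a random block, with only the groups compared and without slide 1. For genotype on Wy-14643 no member was called under any alternative, and medians without 1 array ran from -0.13 to -0.095. On control diet the median was -0.17 with scaling and 0.0042 with Cy5 alone, and -0.097 to -0.066 without 1 array. The median interaction was -0.10 with the deposited ratio, 0.031 with median centring, 0.080 with scaling, -0.17 with Cy5 alone and 0.020 without slide 1, and -0.066 to -0.015 without 1 array. Single values that changed sign, all uncalled, were Mrps22 for genotype on Wy-14643 with Cy5 alone (0.019), on control diet Mrpl2 (0.059) and Mrpl45 (0.40) with Cy5 alone and Mrpl17 with outlier spots kept (0.086) or the mean of the probes present on each array (0.125, although both probes lay below zero, since the brightest lacks a value on the control arrays of slide 1), and for the interaction Mrps21 (0.89) and Mrpl2 (-0.043) with Cy5 alone. The cause of these changes was not tested. Of the other values of single genes 588 kept their side of the threshold and 83 calls were lost. Arrays with the same replicate number correlated in their deviations at -0.071 to 0.42 over 10 pairs, 6 of them over 0.1. Most of these 6 pairs also shared a slide, and pairs with different numbers were not examined. Whether the numbers pair the samples therefore cannot be told. With the replicate block 41 members were called in MycF/F,ERT2-Cre livers (median 0.34). That block gave 10 in MycF/F livers, 5 of them called without it, and 0 for genotype on Wy-14643 (median -0.10).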
